A study of Mus musculus with 2 samples.

Results

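The genes described here are the granzymes and cytotoxic effectors of lymphocytes in the Apc-deleted mouse small intestine. The 8 members are Gzma, Gzmb, Gzmc, Gzmk, Gzmm, Prf1, Fasl and Nkg7, taken by symbol from the 31053 genes of the deposited matrices, and all 8 were found in both. The study induced intestinal hyperproliferation in 2 VilCreER Apc fl/fl mice (APC mice) with 2 intraperitoneal injections of 2 mg tamoxifen given 24 h apart, and took segments of proximal small intestine on day 4. In this model the villin promoter drives the tamoxifen-inducible Cre in the epithelium, so Apc is deleted there and not in the leukocytes that carry these genes. Dissociated cells were sorted with DAPI against dead cells, and their RNA was counted as unique molecular identifiers (UMIs, 1 per captured transcript) by droplet single-cell RNA sequencing. Both libraries, 1 per mouse, belong to 1 group with no undeleted control and no stated age, so every comparison is between cell classes of the same mice. P-values rest on the spread between 2 mice or, where the mouse is a term of the fit, on how class differences vary between them.

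Cytotoxic lymphocytes kill through granules that hold perforin, encoded by Prf1, which opens the membrane of the target cell, and granzymes, serine proteases that enter through it. Nkg7 is a membrane protein of these granules. Fas ligand, encoded by Fasl, acts from the cell surface by binding the death receptor Fas. In the gut epithelium, intraepithelial T cells with γδ or CD8 receptors are known to store granzymes A and B without prior restimulation.

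Barcodes with over 100 genes, over 400 UMIs, under 5% mitochondrial and under 10% haemoglobin UMIs were kept, which left 7941 cells with 81060645 UMIs in mouse 1 and 6957 cells with 35474260 UMIs in mouse 2. The kept cells of both libraries shared 16 barcodes. T cells were cells with at least 1 UMI of Cd3d, Cd3e or Cd3g. They were gated on 1 UMI of Trdc (1513 and 3157 cells in mouse 1 and mouse 2), of Cd8b1 (593 and 314), of Foxp3 (45 and 26) or of Cd4 without Foxp3 (148 and 82). T cells with Cd8a and none of these genes formed a Cd8a-only class (849 and 1480 cells). Cells positive for more than 1 gate were kept out of these classes. No member was used for any gate.

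Levels below are the UMIs of a gene per 1000000 UMIs of a class (CPM), given for mouse 1 and then mouse 2. The γδ constant gene Tcrg-C1 was at 437 and 719 CPM in the Trdc gate and at 24.0 and 72.8 in the Cd8b1 gate, whereas the αβ constant gene Trac was at 222 and 429.6 CPM in the Cd8b1 gate and still at 193 and 268 in the Trdc gate. Trdc-gated cells were therefore enriched for γδ T cells but not free of αβ T-cell RNA. Ctla4, known in regulatory T cells, was at 370.1 and 652 CPM in the Foxp3 gate and 40.6 and 126 in the Cd4 gate, and Il2ra at 95.4 and 137 and 8.22 and 19.

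All T gates carried RNA of other lineages. All 8 of the 8 plasma-cell markers were seen in each gate. Their summed levels were 29253 to 42700.4 CPM in the Cd4 gate and 29846 to 32447 in the Foxp3 gate. They were 7112 to 22282 in the Cd8b1 gate and 4483 to 18288 in the Trdc gate. Most of the sum in the Cd4 gate was Jchain, at 40427 and 27735 CPM in mouse 1 and mouse 2. The 8 macrophage markers summed to 652 to 1772 CPM in the Cd4 gate and 11.7 to 31.1 in the Foxp3 gate. A share of 51.4% and 19.5% of Cd4-gated barcodes held at least 2 markers of another lineage, against 23.8% and 6.11% of Trdc-gated ones. Without such barcodes the plasma-cell sum was 431 to 1872 CPM in the Cd4 gate and 529 to 2310.2 in the Trdc gate. Gate levels of 6 members and the tests are therefore given with all barcodes and without those of another lineage. Shares of cells use all barcodes unless stated.

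In GENCODE M21 (GRCm38) the members are protein-coding genes on 5 chromosomes. Gzma lies at chr13:113093825-113100981 (minus strand) and Gzmk on the same strand nearby, at chr13:113171608-113225908 (minus strand). The annotated span of Gzmk overlaps Esm1 on the opposite strand. Gzmb at chr14:56258838-56262260 (minus strand) and Gzmc at chr14:56231441-56234656 (minus strand) belong to the granzyme cluster of chromosome 14. Prf1 is at chr10:61297833-61304680 (plus strand), Gzmm at chr10:79689020-79695261 (plus strand), Nkg7 at chr7:43437073-43438249 (plus strand) and Fasl at chr1:161780689-161788495 (minus strand).

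The upstream sequences of 4 chosen members, Gzma, Gzmb, Nkg7 and Prf1, are shown here. They are the bases before the RefSeq transcription start (GRCm38.p6), cut where a GENCODE exon of the gene begins, and capitals mark matches to 5 short motifs on either strand.
Gzma (chr13:113100982-113101231, minus strand): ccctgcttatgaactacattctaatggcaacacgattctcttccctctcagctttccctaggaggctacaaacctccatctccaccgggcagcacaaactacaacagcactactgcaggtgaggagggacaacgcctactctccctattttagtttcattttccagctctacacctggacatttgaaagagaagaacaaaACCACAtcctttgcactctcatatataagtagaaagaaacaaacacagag
Gzmb (chr14:56262335-56262584, minus strand): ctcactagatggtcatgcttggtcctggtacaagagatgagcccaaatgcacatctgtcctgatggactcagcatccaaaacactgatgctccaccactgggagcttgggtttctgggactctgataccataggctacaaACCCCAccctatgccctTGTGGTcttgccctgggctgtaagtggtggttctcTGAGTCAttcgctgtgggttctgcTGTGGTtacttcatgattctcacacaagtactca
Nkg7 (chr7:43436888-43437072, plus strand): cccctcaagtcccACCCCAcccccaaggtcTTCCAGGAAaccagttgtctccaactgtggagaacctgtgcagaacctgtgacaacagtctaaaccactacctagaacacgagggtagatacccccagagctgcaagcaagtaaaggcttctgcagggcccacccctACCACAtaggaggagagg
Prf1 (chr10:61297586-61297832, plus strand): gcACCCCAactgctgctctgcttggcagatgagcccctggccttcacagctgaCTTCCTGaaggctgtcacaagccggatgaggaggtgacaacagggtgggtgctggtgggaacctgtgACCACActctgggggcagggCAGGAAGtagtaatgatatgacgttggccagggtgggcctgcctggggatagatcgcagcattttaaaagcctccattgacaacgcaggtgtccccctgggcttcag

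The motifs searched were TGNGGT for RUNX, GGTGTGA for T-box, TGANTCA for AP-1, CAGGAAG for ETS and TTCNNNGAA for STAT factors. In the 250 bases before the start, the RUNX letters were in all 9 windows of the 8 members (Gzmm has 2 starts) and in 40.1% of the 32851 RefSeq windows. The T-box letters were in 3 member windows, of Gzmk, Nkg7 and Gzmm, and in 3.33% of all windows. The ETS letters were in 4 and 10.8%, the STAT letters in 2 and 7.02%, and the AP-1 letters in 1, that of Gzmb, and 6.75%. In the sequences shown, the ETS and T-box matches nearest to the Nkg7 start are left out with the exon that holds them. A match is a description of letters and not of binding.

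Gzma, a tryptase-type granzyme, followed one order over the T-cell classes. Its level was 14009.8 and 17954 CPM in Trdc-gated cells (15982 ± 2789, mean ± s.d., n = 2 mice) and 12534 and 19487 in Cd8a-only cells (16011 ± 4916). These classes overlapped, and both lay above Cd8b1-gated cells at 3932 and 9343 CPM (6638 ± 3826). Cd4-gated cells held 467 and 4228 and Foxp3-gated cells 411 and 2461 CPM, and these last classes overlapped with each other. With barcodes of another lineage removed, the levels were 20099 and 19905 in the Trdc gate, 6990.3 and 11746 in the Cd8b1 gate, 1167 and 8961 in the Cd4 gate and 604 and 3301 in the Foxp3 gate. Mouse 2 was higher than mouse 1 in the Cd8b1, Cd4 and Foxp3 gates under both settings.

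**Figure D1:**
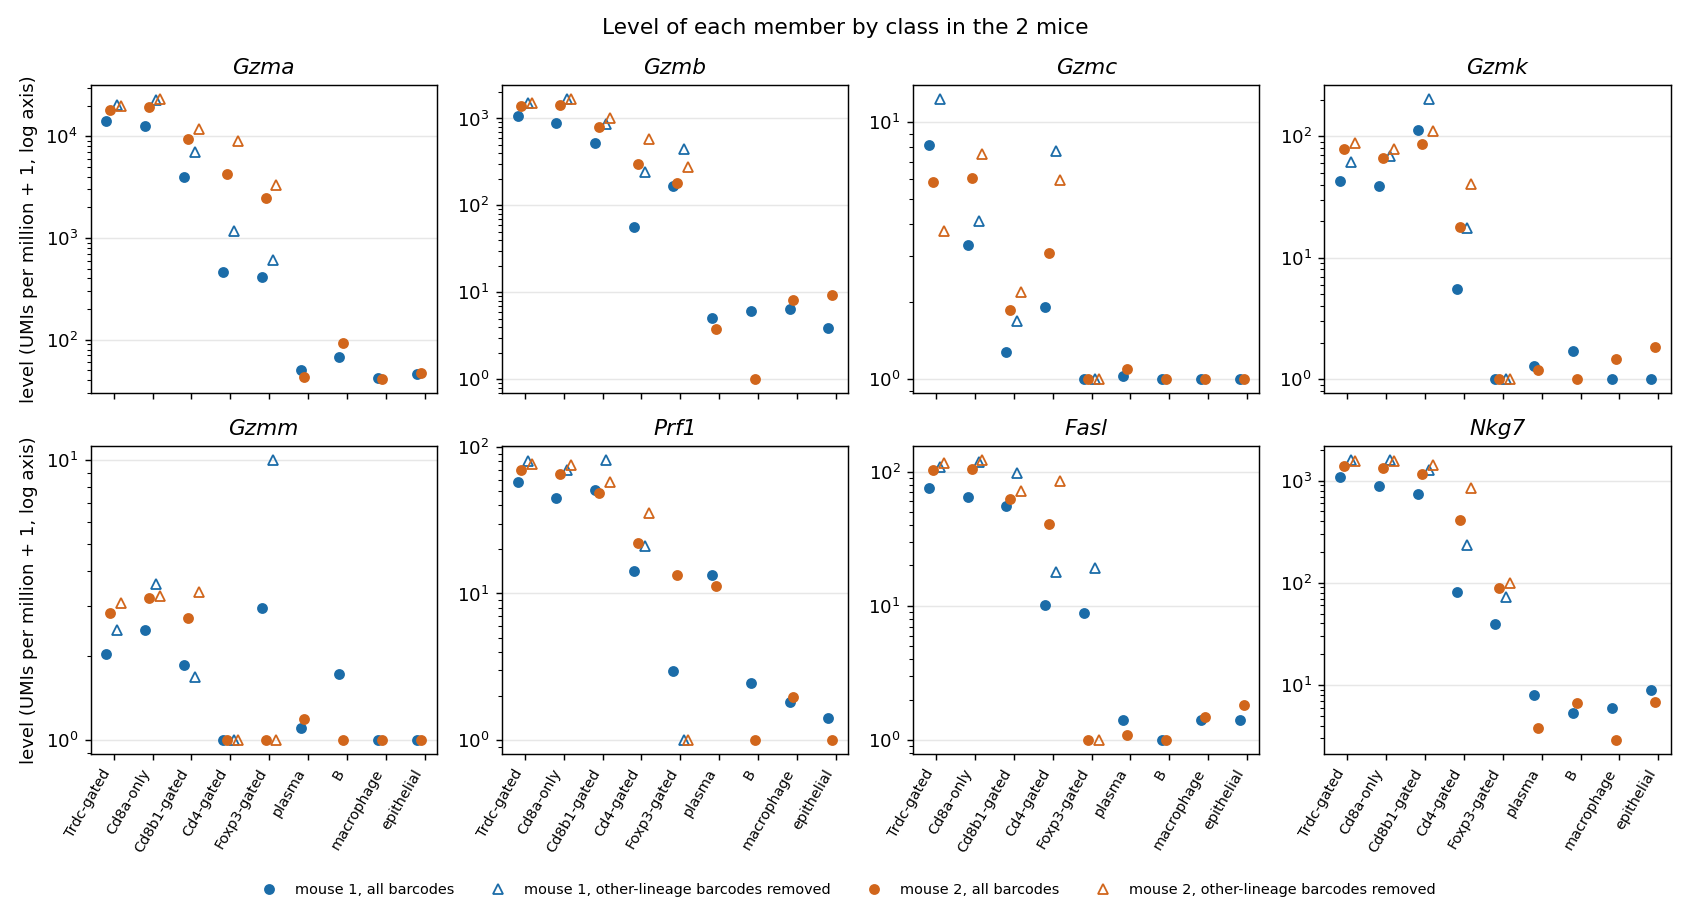
Level of each of the 8 members (CPM + 1, log axis) in 5 T-cell classes and 4 other classes, with 1 point per mouse (blue, mouse 1; orange, mouse 2). Filled circles are all barcodes and open triangles the T-cell classes without barcodes of another lineage. Gzma, Gzmb, Fasl and Nkg7 are highest in the Trdc-gated and Cd8a-only classes when all barcodes are used. Gzmk is highest in the Cd8b1 gate, by little in mouse 2, and Gzmc and Gzmm rest on few UMIs.

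Within single cells, Gzma alone reached percents of the RNA counted. In the median Trdc-gated cell it made up 1.77% and 1.90% of all UMIs, and in the cell at the 90th percentile 3.70% and 3.75%. The median Cd8b1-gated cell was at 0.334% and 0.775%, and its 90th percentile at 1.84% and 2.95%. In the Cd4 gate the median was 0.00348% and 0.0409% and the 90th percentile 0.449% and 3.12%, while the median plasma cell was at 0.00335% and 0%.

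**Figure D2:**
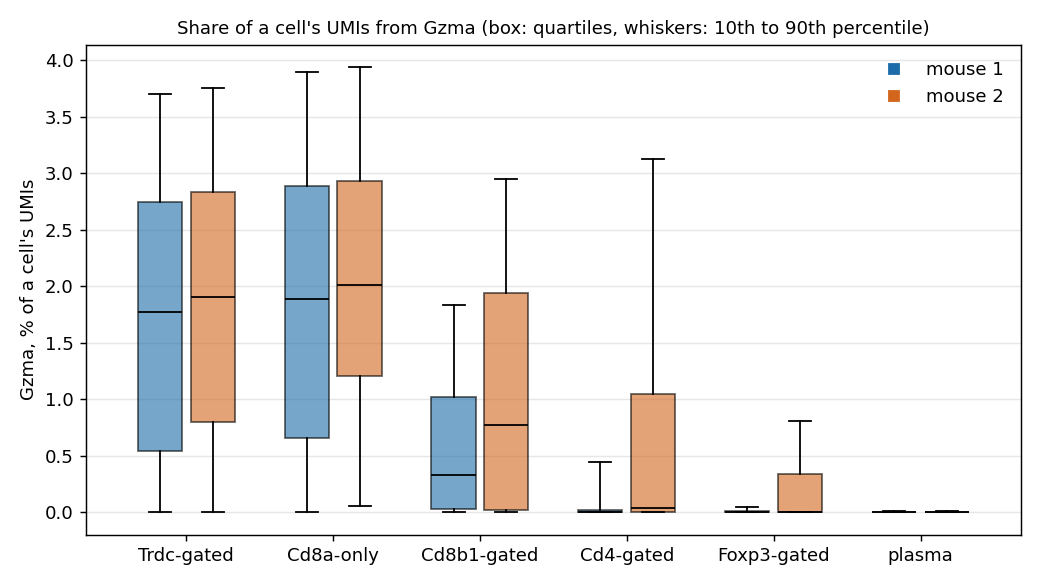
Share of a cell's UMIs that came from Gzma (y axis, %) by class and mouse, with boxes at the quartiles, a line at the median and whiskers from the 10th to the 90th percentile of cells. The medians of the Trdc-gated cells are 1.77% and 1.90%, and the Cd4-gated cells of mouse 2 have a low median under a long upper whisker.

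Gzma UMIs were also found in lineages that are not known to express it, which sets the background. Plasma cells, with a median of 21514 and 19960.5 UMIs, held Gzma at 49.7 and 41.6 CPM and at least 1 Gzma UMI in 55.0% and 48.3% of cells. Levels were of like size in B cells (66.4 and 91.4 CPM), macrophages or monocytes (41.4 and 39.9), dendritic cells (39.3 and 57.4) and epithelial cells (45.3 and 46.3). Trdc-gated cells had a median of 3472 and 2681 UMIs and a Gzma UMI in 87.6% and 86.3% of them. When each cell was thinned to 1000 UMIs, the share was 82.4% (80.4 to 84.3%) and 82.6% (81.2 to 83.9%) in the Trdc gate (exact binomial 95% interval). It was 71.5% (67.6 to 75.1%) and 69.7% (64.2 to 74.7%) in the Cd8b1 gate, 21.6% (15.3 to 29.1%) and 43.2% (32.2 to 54.7%) in the Cd4 gate, and 4.83% (3.88 to 5.93%) and 4.84% (3.15 to 7.06%) in plasma cells. B cells, with a median of 3373.5 and 2308 UMIs, were at 7.88% (5.21 to 11.3%) and 11.6% (5.14 to 21.6%). The Foxp3-gated share, 11.1% (3.71 to 24.1%) in mouse 1, was within counting error of that of plasma cells and B cells there. In mouse 2 it was 34.6% (17.2 to 55.7%), an interval that lay above that of plasma cells and overlapped with that of B cells. These intervals cover counting error only.

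Gzmb, the granzyme that cleaves after aspartate and triggers caspases, had the same order over the Trdc, Cd8a-only, Cd8b1 and Cd4 classes. It stood at 1078 and 1380.0 CPM in the Trdc gate, 883 and 1418 in Cd8a-only cells and 521 and 799.5 in the Cd8b1 gate. The Cd4 gate was at 55.7 and 295 CPM, and the Foxp3 gate at 166 and 180.2 lay inside its range. Background was 4.12 and 2.77 CPM in plasma cells and 5.38 and 7.12 in macrophages. After removal of barcodes of another lineage, the Trdc gate was at 1490.3 and 1489, the Cd8b1 gate at 854 and 1002 and the Foxp3 gate at 451 and 279 CPM, beside 241 and 585 in the Cd4 gate, which overlapped.

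Nkg7 was at 1092 and 1399 CPM in the Trdc gate, 884 and 1317 in Cd8a-only cells and 733 and 1163 in the Cd8b1 gate, and these ranges overlapped. It was at 80.8 and 411 CPM in the Cd4 gate and 39.0 and 87.0 in the Foxp3 gate, ranges that met at their ends, and both lay above 6.97 and 2.77 in plasma cells. With barcodes of another lineage removed, it was at 1578 and 1562 CPM in the Trdc gate, 1283 and 1420.3 in the Cd8b1 gate, 234 and 842 in the Cd4 gate and 72.1 and 97.5 in the Foxp3 gate. Thinned to 1000 UMIs, 70.9% (68.6 to 73.2%) and 73.3% (71.7 to 74.8%) of Trdc-gated cells held an Nkg7 UMI, against 63.5% (59.5 to 67.4%) and 66.5% (60.9 to 71.7%) of Cd8b1-gated cells.

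Prf1 and Fasl were found in the same classes. Prf1 was at 56.4 and 69.0 CPM in the Trdc gate, 43.9 and 64.3 in Cd8a-only cells and 50.2 and 47.6 in the Cd8b1 gate, where the Cd8a-only range overlapped with both others, and at 13.2 and 21.1 in the Cd4 gate. Fasl was at 74.9 and 102 CPM in the Trdc gate, 63.5 and 103 in Cd8a-only cells, 55.0 and 61.5 in the Cd8b1 gate and 9.13 and 40.0 in the Cd4 gate. In Foxp3-gated cells Prf1 had 1 and 2 UMIs and Fasl 4 and 0 UMIs in all. Once barcodes of another lineage were removed, Prf1 was at 79.1 and 75.6 CPM in the Trdc gate, 81.2 and 56.6 in the Cd8b1 gate and 20.1 and 34.7 in the Cd4 gate. Fasl was then at 108 and 116 CPM in the Trdc gate and 97.6 and 70.8 in the Cd8b1 gate, which overlapped with 16.7 and 84.2 in the Cd4 gate, and had 2 and 0 UMIs in the Foxp3 gate. In this setting no Prf1 UMI was left in the Foxp3 gate, where 3 UMIs would have been 27.0 and 41.8 CPM.

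Gzmk, a granzyme with tryptase activity that neighbours Gzma, had another order. Its level was 111 and 85.8 CPM in the Cd8b1 gate, above 41.9 and 77.4 in the Trdc gate and 37.8 and 65.6 in Cd8a-only cells in each mouse. Thinned to 1000 UMIs, 14.4% (11.7 to 17.5%) and 8.71% (5.82 to 12.4%) of Cd8b1-gated cells held a Gzmk UMI. In the Trdc gate the shares were 4.92% (3.89 to 6.14%) and 8.60% (7.64 to 9.63%). The shares of these gates were thus within counting error of each other in mouse 2. The Cd4 gate held 4.57 and 16.9 CPM, and the Foxp3 gate held none, where 3 UMIs would have been 5.84 and 18.6 CPM. With barcodes of another lineage removed, the Cd8b1 gate was at 201 and 109.7, the Trdc gate at 60.5 and 87.2 and the Cd4 gate at 16.7 and 39.6 CPM. Outside T cells Gzmk was at most 0.827 CPM in plasma, B, dendritic and epithelial cells and macrophages.

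Gzmc and Gzmm were sparse. Gzmc had 84 UMIs in 42 cells of mouse 1 and 185 UMIs in 54 cells of mouse 2. In mouse 2, the top pair of cells held 41 and 39 of them. Both were Cd3-positive cells outside all gates with no Gzma UMI, and the second carried 3 UMIs of the natural killer receptor gene Ncr1 and 18 of Nkg7. The top cells of mouse 1 were Trdc-gated and held 11 UMIs each, beside 58 and 409 of Gzma. Gzmm had 28 and 37 UMIs in all kept cells, and 8 and 19 of them were in the Trdc gate, 3 and 2 in the Cd8b1 gate and 0 and 0 in the Cd4 gate, where a difference was not detectable at this depth. The other genes of the chromosome 14 cluster on the pathway list, Gzmd, Gzme, Gzmf, Gzmg and Gzmn, had 0 UMIs in both libraries. Reads shared by near-identical copies of this cluster cannot be told apart in the deposited counts, so the values of Gzmc and of these genes are uncertain.

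Trdc-gated cells were compared with Cd4-gated cells to ask in which effector genes these gates differed. Summed counts per mouse were tested with edgeR (quasi-likelihood), and p-values were adjusted by Benjamini-Hochberg over all 10939 genes tested. Gzmm was below the filter on low counts, so 7 members were tested. In the test without a mouse term, Gzmb was higher by 2.38 ± 0.47 on the log2 scale (± SE, adjusted p = 0.0463), and the single-mouse ratios were 3.53 and 1.91. It was the 1 of 7 members called higher, beside 0.649% of all genes. With the mouse as a block, which uses that the classes of a mouse come from the same animal, 6 of 7 members were higher, beside 8.11% of all genes. Gzmb was then higher by 2.53 ± 0.34 (adjusted p = 0.00054, range over the fits 1.08e-15 to 0.153). Gzma was higher by 2.79 ± 0.51 (adjusted p = 0.00322 by edgeR, range over the fits 4.36e-39 to 0.209), Nkg7 by 2.06 ± 0.31 (adjusted p = 0.000955, range 7.33e-11 to 0.184) and Gzmk by 2.20 ± 0.46 (adjusted p = 0.00798, range 4.34e-08 to 0.155). Fasl was higher by 1.65 ± 0.30 (adjusted p = 0.00314, range 1.18e-05 to 0.218) and Prf1 by 1.26 ± 0.23 (adjusted p = 0.00341, range 0.00102 to 0.12). Gzmc differed by 1.58 ± 0.86 and was not called. For most members the lowest p came from the fit with no filter on low counts, in which the spread was taken wholly from the trend across genes.

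Without barcodes of another lineage and with the block, 5 of 6 members tested were higher, beside 3.51% of all genes, and the differences were smaller for all of them but Prf1. Gzma differed by 2.30 ± 0.40, Gzmb by 1.78 ± 0.21 and Prf1 by 1.41 ± 0.37. Gzmk, at 1.37 ± 0.51 (adjusted p = 0.0982 by edgeR), was not called in this fit. The median log2 difference over the 7 members was 2.06 with all barcodes and the block and 1.46 over the 6 tested without barcodes of another lineage, beside 0.02 and 0.04 over all genes.

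Cd8b1-gated cells were above Cd4-gated cells in Gzmb, Gzmk, Prf1, Fasl and Nkg7 once the mouse was a block. In the planned test, without a mouse term, edgeR called 0 of 7 members higher, beside 0.0274% of all genes. There, 5 of 7 members were higher at an unadjusted p under 0.05, beside 1244 of 10939 genes in either direction. DESeq2 called 3 members higher, beside 71 of 9242 genes with an adjusted p-value. Over 10 fits, Gzmk and Nkg7 passed in 5 each, Gzmb in 4, Prf1 in 3 and Fasl in 2. With the mouse as a block, 5 of 7 were higher, beside 2.94% of all genes. The largest difference was that of Gzmk, 3.22 ± 0.44 on the log2 scale (adjusted p = 0.00259 by edgeR, range over the fits 5.48e-15 to 0.446), with single-mouse ratios of 3.94 and 2.07. Nkg7 was higher by 1.78 ± 0.30 (adjusted p = 0.00545, range 2.32e-07 to 0.515) and Gzmb by 1.76 ± 0.33 (adjusted p = 0.00915, range 4.68e-07 to 0.522). Fasl was higher by 1.26 ± 0.32 (adjusted p = 0.0392, range 0.0161 to 0.616) and Prf1 by 1.11 ± 0.25 (adjusted p = 0.02, range 0.02 to 0.476).

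The Gzma difference between the Cd8b1 and Cd4 gates, 1.47 ± 0.49, was not called (adjusted p = 0.101 by edgeR, range over the fits 2.83e-10 to 0.754), with 2.43 and 0.88 in the single mice. The only call came from the fit with no filter on low counts. Without barcodes of another lineage and with the block, 4 of 6 members were higher, beside 0.898% of all genes. These were Gzmb, Gzmk, Nkg7 and Prf1, while Fasl at 0.93 ± 0.37 (adjusted p = 0.239 by edgeR) was not called. The members' median was 1.47 with all barcodes and the block and 1.30 over the 6 tested without barcodes of another lineage, beside 0.02 and 0.03 over all genes.

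Gzmk was the member that was lower in Trdc-gated than in Cd8b1-gated cells, once the mouse was a block. Without a mouse term, edgeR called 0 of 7 members higher in Trdc-gated cells and 0 lower, beside 0.0914% and 0.128% of all genes. At an unadjusted p under 0.05 there was 1 member in each direction, beside 794 of 10939 genes over both directions. DESeq2 called no member, beside 102 genes higher and 93 lower. With the block, Gzmk was lower, with a log2 difference of -1.02 ± 0.25 (adjusted p = 0.0479 by edgeR, range over the fits 2.54e-06 to 0.531) and Gzmc higher by 3.51 ± 0.83 (adjusted p = 0.0438, range 0.0267 to 0.277). These were 1 of 7 members each way, beside 2.02% of genes lower and 2.24% higher. The Gzmc call rested on 55 and 50 UMIs against 1 and 1. Those of the Trdc gate were in 20 of 1513 and 24 of 3157 cells, and 1 cell of mouse 2 held 23. The fold of Gzmc is therefore not well determined. Gzmc was below the filter on low counts once barcodes of another lineage were removed.

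Without barcodes of another lineage and with the block, Gzma was higher in the Trdc gate by 1.12 ± 0.37 (adjusted p = 0.0446 by edgeR, range over the fits 7.08e-10 to 1) and Gzmb by 0.58 ± 0.17 (adjusted p = 0.02, range 0.02 to 0.913). Gzmk was lower, with a difference of -1.24 ± 0.17 (adjusted p = 2.54e-06). These made 2 members higher and 1 lower of 6, beside 5.32% and 5.03% of all genes. Prf1, at 0.01 ± 0.15, and Nkg7, at 0.11 ± 0.19, were not called in this fit. The single-mouse ratios of Gzmk were -1.51 and -0.20 with all barcodes and -1.80 and -0.40 without those of another lineage, so most of its size came from mouse 1. In the blocked fit without such barcodes, the spread of a gene had 4 residual degrees of freedom and 27.5 borrowed from all genes. The p-values of that fit therefore rest largely on the spread of other genes. The members' median was 0.39 with all barcodes and the block and 0.18 over the 6 tested without barcodes of another lineage, beside -0.02 and -0.01 over all genes.

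**Figure D3:**
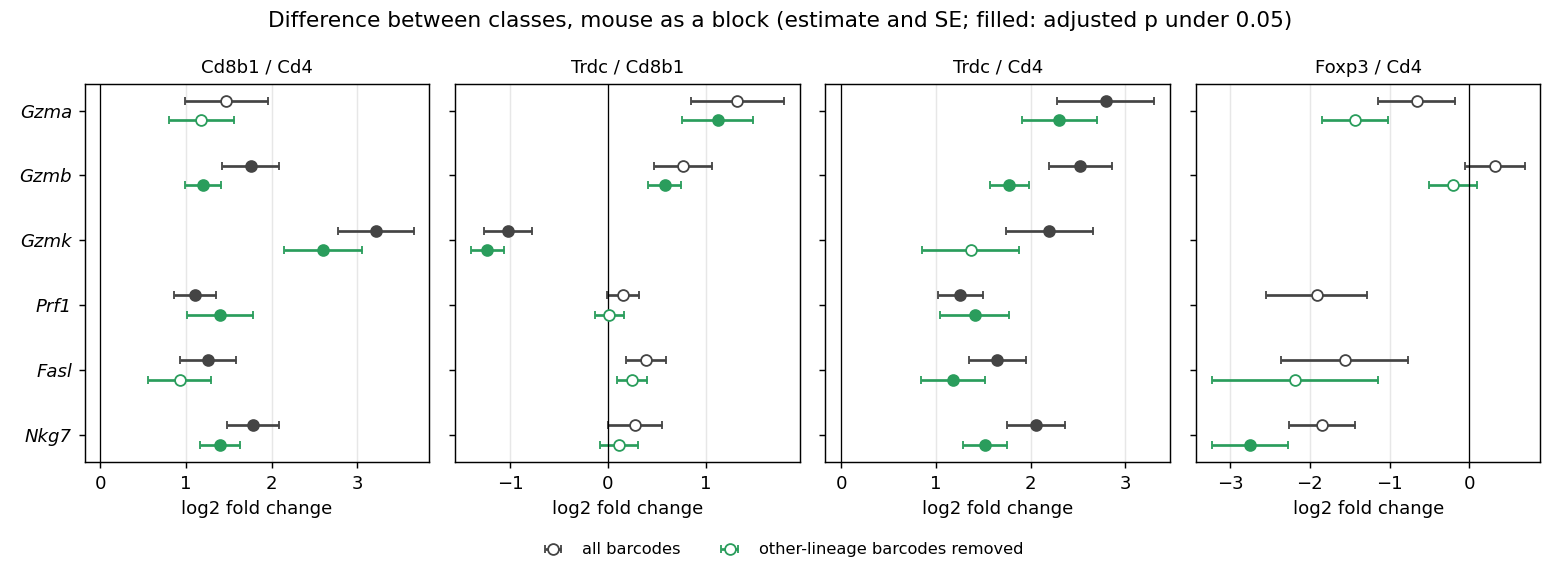
Difference of 6 members between T-cell classes (x axis, log2 fold change of the first class over the second, ± SE, n = 2 mice) from edgeR with the mouse as a block. Dark grey points use all barcodes, green points leave out barcodes of another lineage, and filled points have an adjusted p under 0.05. Gzmk lies left of 0 in the Trdc against Cd8b1 panel, while Gzma and Gzmb lie right of it, and fitted values beyond 5 on either side, which come from classes at 0 UMIs, are not drawn.

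Between the Foxp3 and Cd4 gates, Nkg7 passed in 4 of 9 fits, Gzma in 1, that with no filter on low counts, and the other members in none. Without a mouse term, edgeR called 0 of 7 members lower, beside 0.0548% of all genes. There, 3 members were lower at an unadjusted p under 0.05, beside 1009 of 10939 genes in either direction. DESeq2 called 1 lower, Nkg7, beside 36 of 6909 genes with an adjusted p-value. With the block, edgeR again called 0 lower, beside 0.612% of all genes. At an unadjusted p under 0.05 there were 2 lower, beside 1381 of 10939 genes in either direction. Without barcodes of another lineage and with the block, Nkg7 differed by -2.74 ± 0.48 on the log2 scale (adjusted p = 0.000571 by edgeR, range over the fits 1.91e-08 to 0.518). This was 1 of 6 members, beside 0.577% of all genes. Gzma differed by -1.44 ± 0.41 and Gzmb by -0.20 ± 0.30 in that fit, neither of them called. The direction of Gzmb turned between fits, since with all barcodes it was 0.11 ± 0.46, and the single-mouse ratios were 1.32 and -0.66. Over the members the median was -1.85 with all barcodes and the block and -2.47 over the 6 tested without barcodes of another lineage, beside -0.10 and -0.15 over all genes, and Gzmk and Prf1, at or near 0 UMIs in the Foxp3 gate, enter it with fitted values that are no bound. This gate held 45 and 26 cells.

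Most Gzma UMIs of the Cd4 gate were in cells that also had Cd8a, the CD8α gene. This split was chosen after seeing the data and is given without a test. Cd4-gated cells with a Cd8a UMI (30 and 35 cells) held Gzma at 1653 and 9843 CPM, Nkg7 at 220.1 and 845 and Gzmb at 85.1 and 558. Those without one (118 and 47 cells) held Gzma at 133 and 301, Nkg7 at 41.5 and 107 and Gzmb at 47.4 and 111 CPM. The cells with Cd8a carried 796 and 1922 of the 1023 and 2006 Gzma UMIs of the gate. Of the cells with Cd8a, 10 and 29 were free of markers of another lineage, and these held Gzma at 5707 and 18382, Nkg7 at 853 and 1536 and Gzmb at 237 and 1049 CPM. The 62 and 37 such cells without Cd8a held Gzma at 420.4 and 689, Nkg7 at 132 and 233 and Gzmb at 241 and 177 CPM, so that in mouse 1 the Gzmb levels were close to each other. Whether such barcodes held 1 cell or a pair of T cells was not tested.

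In the Trdc and Cd8b1 gates, Gzmb was rarely seen without Gzma. With each cell thinned to 1000 UMIs, 52.0% and 53.0% of Trdc-gated cells held both, 30.5% and 29.6% held Gzma alone, and 0.266% and 0.192% held Gzmb alone. In the Cd8b1 gate the shares were 36.2% and 37.7% with both, 35.3% and 31.9% with Gzma alone and 1.70% and 0.968% with Gzmb alone. Among Foxp3-gated cells, 5 of 45 and 2 of 26 cells held Gzmb without Gzma, and 1 and 3 held both. Among those free of markers of another lineage, 4 of 26 and 2 of 21 held Gzmb without Gzma. Every one of the 74 and 269 thinned Trdc-gated cells with a Gzmk UMI also held Gzma, as did 73 of 85 and 23 of 27 in the Cd8b1 gate. These are descriptions of cells of 2 libraries, and cells are no replicates.

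**Figure D4:**
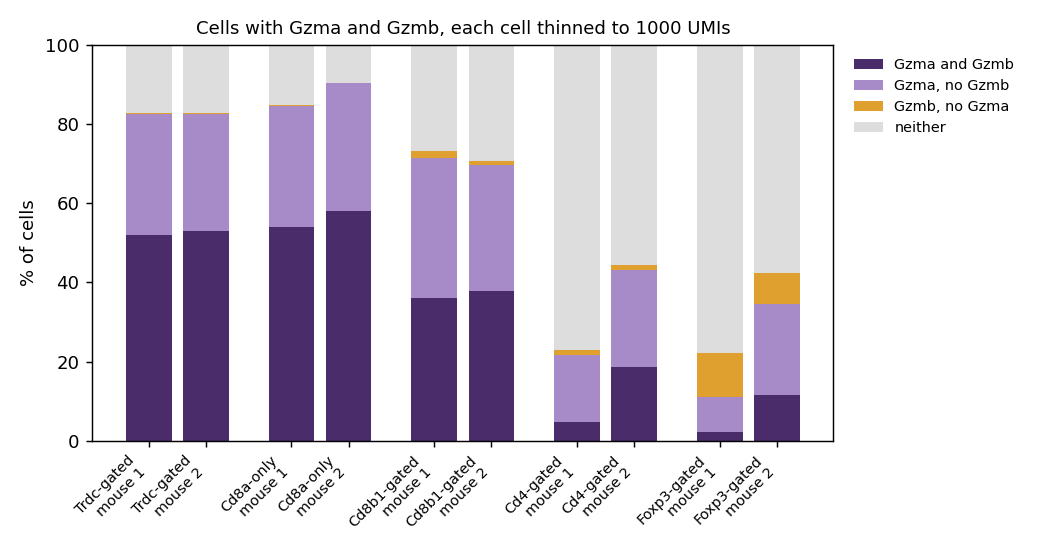
Share of cells (y axis, %) with UMIs of Gzma and Gzmb, of either alone or of neither, by T-cell class and mouse, after thinning each cell to 1000 UMIs. Cells with Gzmb and no Gzma are at 0.266% and 0.192% in the Trdc gate and at 11.1% and 7.69% in the Foxp3 gate, which has few cells.

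Innate lymphoid cells by the marker rule were too few to test, with 1 and 2 Ncr1-positive and 17 and 12 Ncr1-negative cells against a minimum of 20 in each mouse. The Ncr1-negative cells held Gzma at 138 and 45 CPM, Nkg7 at 69.2 and 67.5 and Gzmb at 9.88 and 0, from 14 and 2, 7 and 3 and 1 and 0 UMIs, and the Ncr1-positive ones held no UMI of any member. A wider gate, chosen after seeing the data, took cells with an Ncr1 UMI, no Cd3 UMI and no other lineage (26 and 20 cells). These held Prf1 at 112 and 100.3 CPM, Gzmc at 31.9 and 129, Nkg7 at 1172 and 874 and Gzma at 1299 and 1820.3, and no Gzmk. In each mouse their Prf1 and Gzmc values were above those of all gated T-cell classes, and their Gzma values below those of the Trdc and Cd8b1 gates, from 14 and 7 UMIs of Prf1 and 4 and 9 of Gzmc.

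Prf1 was also found in plasma cells. They held it at 12.4 and 10.3 CPM, from 468 and 108 UMIs in 314 of 1813 and 76 of 518 cells, against 1.44 and 0 CPM in B cells, 0.828 and 0.949 in macrophages, 0 and 0 in dendritic cells and 0.411 and 0 in epithelial cells. The level was 11.8 and 9.90 CPM without the cell that held most. The ratio of Prf1 to Gzma in plasma cells was above that of every other class examined. Per 1000 Gzma UMIs there were 248 and 248 of Prf1 in plasma cells, 4.03 and 3.84 in Trdc-gated cells, 12.8 and 5.10 in Cd8b1-gated cells, 21.7 and 0 in B cells, 20 and 23.8 in macrophages, 0 and 0 in dendritic cells and 9.09 and 0 in epithelial cells. For Gzmb the same ratio was 82.8 and 66.7 in plasma cells and 77.0 and 76.9 in Trdc-gated cells. Plasma cells without any UMI of Gzma, Gzmb or Nkg7, a choice made after seeing the data, held Prf1 at 10.9 and 7.06 CPM, from 135 and 33 UMIs. The source of the Prf1 UMIs of plasma cells was not tested. The Cd4 gate, at 13.2 and 21.1 CPM of Prf1, also carried plasma-cell markers, and without barcodes of another lineage it was at 20.1 and 34.7 CPM, from 6 and 7 UMIs.

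**Figure D5:**
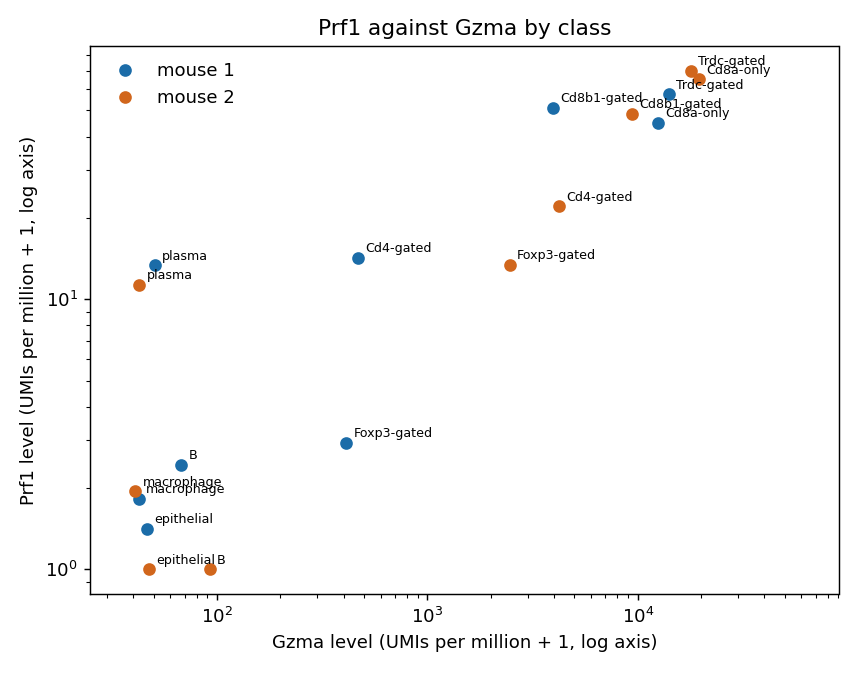
Prf1 level against Gzma level (both CPM + 1, log axes) for 9 classes, with 1 point per class and mouse (blue, mouse 1; orange, mouse 2). Plasma cells lie at 12.4 and 10.3 CPM of Prf1 with Gzma at 49.7 and 41.6 CPM, above B cells, macrophages and epithelial cells of similar Gzma level.

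Across the 11 leukocyte classes that held 20 or more cells in both mice, the genes whose levels were most like each of the main members were ranked among 7204 genes by the lower of both mice's Pearson r of log2(CPM + 1). For Gzma these were Ccl5 (r = 0.99 and 0.99), Nkg7 (0.99 and 0.99) and Trgv2 (0.98 and 0.98). For Nkg7 they were Ccl5 (0.99 and 1.00), Actn2 (0.99 and 0.99) and Gzma (0.99 and 0.99), and for Gzmb Cd96 (0.99 and 0.99), Trat1 (0.98 and 0.98) and Txk (0.97 and 0.99). The pattern of Prf1 was most like Airn (0.99 and 0.99), Igf2r (0.93 and 0.95) and Zbtb38 (0.94 and 0.93), which were also present in plasma cells. Airn was at 7.58 and 11.5 CPM there and at 29.5 and 43.1 in Trdc-gated cells. The classes of a mouse share a library and differ in depth, so these correlations are a description.

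A list of 33 other genes of the pathway was examined in the same tests: other granzymes, granule matrix and release, granzyme inhibitors, transcription factors, and death ligands, cytokines and receptors. Between the Trdc and Cd4 gates, 7 of 25 listed genes tested were higher and 3 lower with the block (all genes, 8.11% and 11.8%), and 2 and 0 without it. The pair called in both fits were Tnfsf10, the death ligand TRAIL (1.79 ± 0.21, adjusted p = 0.000266 by edgeR), and Unc13d, which primes granules for release (1.16 ± 0.24, adjusted p = 0.00674). With the block, Ctsw, a lymphocyte protease (2.15 ± 0.30, adjusted p = 0.00064), and Cst7, an inhibitor of granule proteases (1.71 ± 0.36, adjusted p = 0.00703), were also higher. So were the transcription factors Runx3 (1.63 ± 0.22, adjusted p = 0.000619) and Tbx21 (1.65 ± 0.40, adjusted p = 0.014), and the serpin gene Serpinb6b (1.23 ± 0.24, adjusted p = 0.00471). Tcf7, a transcription factor of naive and memory T cells, was lower (-1.39 ± 0.18, adjusted p = 0.000481). Without barcodes of another lineage and with the block, 6 of 26 were higher and 2 lower (all genes, 3.51% and 5.32%). Tnfsf10, Ctsw, Runx3, Tbx21 and Cst7 were again higher and Tcf7 lower in that fit. Unc13d (0.45 ± 0.37, adjusted p = 0.579 by edgeR) and Serpinb6b (0.92 ± 0.33, adjusted p = 0.0775) were not called. Ctsc, which activates granzymes by removing their propeptide, was called higher there (1.38 ± 0.23, adjusted p = 5.33e-05 by edgeR), and the serpin gene Serpinb1a lower (-4.68 ± 0.63, adjusted p = 1.99e-06), from 19 and 8 UMIs in the Trdc and 14 and 14 in the Cd4 gate. The median over the list was 0.08 with all barcodes and 0.41 without those of another lineage, beside 0.02 and 0.04 over all genes.

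Between the Cd8b1 and Cd4 gates, 5 of 25 listed genes were higher and 1 lower with the block (all genes, 2.94% and 4.4%), and none without it. Those higher were Ctsw (1.73 ± 0.30, adjusted p = 0.00568 by edgeR), Runx3 (1.42 ± 0.22, adjusted p = 0.00371), Cst7 (1.42 ± 0.38, adjusted p = 0.0435), Tnfsf10 (1.16 ± 0.22, adjusted p = 0.0085) and Eomes, a T-box factor with 28 and 4 UMIs in the Cd8b1 gate and 0 and 0 in the Cd4 gate. Prdm1, known in effector T cells and also a plasma-cell marker here, was lower (-0.61 ± 0.15, adjusted p = 0.0348). In the blocked fit that left out barcodes of another lineage, 3 of 26 were higher, namely Ctsw, Runx3 and Tnfsf10, and 2 lower, Tcf7 (-1.29 ± 0.16, adjusted p = 2.87e-06 by edgeR) and Serpinb1a (-4.40 ± 0.74, adjusted p = 0.000261, from 7 and 0 UMIs in the Cd8b1 gate), beside 0.898% and 1.71% of all genes. Cst7 (0.79 ± 0.27, adjusted p = 0.155), Eomes (adjusted p = 0.307) and Prdm1 (0.09 ± 0.33, adjusted p = 0.967) were not called by edgeR in that fit.

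Between the Trdc and Cd8b1 gates, the listed genes called depended on the barcodes used. With all barcodes and the block, 0 of 25 were higher and 1 lower (all genes, 2.24% and 2.02%), which was Tcf7 (-0.95 ± 0.17, adjusted p = 0.00822 by edgeR). The counts were 0 and 0 without the block (all genes, 0.0914% and 0.128%). With no filter on low counts they were 0 and 2 of 28, beside 224 and 234 of 18675 genes. After removal of barcodes of another lineage, with the block, 5 of 26 were higher and 6 lower (all genes, 5.32% and 5.03%). The largest differences among transcription factors were those of Eomes (-2.57 ± 0.64, adjusted p = 0.00651 by edgeR), Tcf7 (-1.03 ± 0.13, adjusted p = 2.62e-07) and Zeb2 (-0.85 ± 0.23, adjusted p = 0.0124), all lower, and Nfil3 (1.40 ± 0.41, adjusted p = 0.0224), which was higher. Gnptab, which helps to route enzymes to lysosomes (1.14 ± 0.23, adjusted p = 0.000528 by edgeR), and Ctsc (0.77 ± 0.12, adjusted p = 2.17e-05) were higher, while the cytokine gene Tnf (-2.05 ± 0.53, adjusted p = 0.00783) and the death receptor gene Fas (-0.94 ± 0.28, adjusted p = 0.0235) were lower. Eomes rested on 7 and 10 UMIs in the Trdc and 18 and 4 in the Cd8b1 gate, and Tnf on 15 and 20 and 35 and 2.

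In the Foxp3 gate against the Cd4 gate, 1 of 25 listed genes was higher and 3 lower with the block (all genes, 0.978% and 0.612%), and 0 and 0 without it. Hopx was higher (2.03 ± 0.20, adjusted p = 0.000226 by edgeR). Tcf7 (-2.95 ± 0.37, adjusted p = 0.00142), Ctsc (-2.04 ± 0.35, adjusted p = 0.011) and Lamp1, a membrane protein of lysosomes and granules (-1.18 ± 0.24, adjusted p = 0.0346), were lower. The macrophage markers moved the same way with all barcodes. Their sums were 11.7 to 31.1 CPM in the Foxp3 gate and 652 to 1772 in the Cd4 gate. Whether these markers bear on the calls was not tested. The markers summed to 13.9 to 18.0 and 4.95 to 23.4 CPM without barcodes of another lineage. In the blocked fit without such barcodes, Ctsc (-1.01 ± 0.55, adjusted p = 0.538 by edgeR) and Lamp1 (-0.24 ± 0.40, adjusted p = 0.883) were not called. There, 2 of 26 listed genes were higher, Hopx and Srgn, which encodes the proteoglycan core of granules (1.03 ± 0.19, adjusted p = 0.00166 by edgeR), and 2 lower, Tcf7 and Runx3 (-1.56 ± 0.36, adjusted p = 0.0172), beside 0.919% and 0.577% of all genes.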

How the data were processed

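Droplet single-cell RNA sequencing measured 2 libraries, 1 per mouse. Per the labels, the authors deposited raw UMI counts per gene and barcode (Cell Ranger 6.1.2 and mm10 in the submitters' processing notes), and replicates were not pooled. The files held 9645 and 8800 barcodes, with 85670711 and 38716743 UMIs, before the filters stated in the report. The members and lists were chosen with earlier results of these data known.

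UMI counts were summed per mouse and class for classes of at least 20 cells, and the 5 T-cell classes were fitted together in R 4.3.3 with edgeR 4.0.16 (TMM scaling, filterByExpr, two-sided quasi-likelihood test, p-values adjusted by Benjamini-Hochberg over every gene in the fit, threshold 0.05) after tests on simulated data. The planned test had no mouse term, and the block, an alternative, used the mouse. Classes with the same number come from the same animal and library, and their deviations from the class means correlated over 10616 genes in all 10 pairs of classes, with r from 0.21 to 0.72. The T-cell gates carried markers of other lineages. As an alternative, barcodes with 2 or more markers of the same list, among plasma, B, macrophage, dendritic, mast, granulocyte and epithelial, were removed. Jchain, Lyz2 and Epcam were not counted for this rule, and no doublet caller was run. Further alternatives were a fit of only the classes compared, DESeq2 1.42.0, gates at 2 UMIs, every gene with a count, a limit of 10% on mitochondrial UMIs, and removal of barcodes with 10% or more immunoglobulin UMIs. A planned comparison within a class is not reported here. Levels (CPM) are UMIs of a gene per 1000000 of its class. Thinning to 1000 UMIs per cell left out 10 and 28 Trdc-gated and 4 and 4 Cd8b1-gated cells. Lineages other than T cells were cells without a Cd3 UMI that held at least 3 markers of a list. Genes named were the 8 members, up to 8 pathway genes by size that passed in a fit of a comparison, and the 3 genes most like each of Gzma, Gzmb, Prf1 and Nkg7. Promoter windows of all 8 members came from RefSeq (GRCm38.p6).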

Additional observations from a re-analysis of the deposited data

Results flagged for a closer look

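The barcodes removed by the filters, of which only those within the limit of 10% mitochondrial UMIs entered an alternative fit, held more than 3 UMIs of each of 7 members over both mice. There were 30414 UMIs of Gzma, 2186 of Gzmb, 2621 of Nkg7, 329 of Fasl, 201 of Gzmk, 182 of Prf1 and 9 of Gzmm. Of the Gzma UMIs, 6977 were from the 1704 barcodes removed in mouse 1 and 23437 from the 1843 removed in mouse 2. They were listed because these data stand outside the main measurement.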

How the results depend on the processing

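Genes called by edgeR at an adjusted p under 0.05 numbered 6 for Cd8b1 against Cd4, 24 for Trdc against Cd8b1, 209 for Trdc against Cd4 and 13 for Foxp3 against Cd4 in the fits without a mouse term. With the mouse as a replicate block, which follows the pairing of classes by animal, they numbered 803 for Cd8b1 against Cd4, 466 for Trdc against Cd8b1, 2183 for Trdc against Cd4 and 174 for Foxp3 against Cd4. With the block and without barcodes of another lineage, an addition made after seeing the data, the counts were 244 for Cd8b1 against Cd4, 969 for Trdc against Cd8b1, 826 for Trdc against Cd4 and 140 for Foxp3 against Cd4, and without such barcodes alone 47 for Cd8b1 against Cd4, 236 for Trdc against Cd8b1, 335 for Trdc against Cd4 and 47 for Foxp3 against Cd4. DESeq2 gave 163 for Cd8b1 against Cd4, 195 for Trdc against Cd8b1, 828 for Trdc against Cd4 and 117 for Foxp3 against Cd4. Without a filter on low counts there were 727 for Cd8b1 against Cd4, 458 for Trdc against Cd8b1, 1631 for Trdc against Cd4 and 407 for Foxp3 against Cd4. Removal of barcodes with 10% or more immunoglobulin UMIs, also added after seeing the data, gave 11 for Cd8b1 against Cd4, 114 for Trdc against Cd8b1, 495 for Trdc against Cd4 and 32 for Foxp3 against Cd4. With only both compared classes in the fit, there were 0 for Cd8b1 against Cd4, 5 for Trdc against Cd8b1, 4 for Trdc against Cd4 and 16 for Foxp3 against Cd4, and in the first of these 777 genes had an unadjusted p under 0.05. Mitochondrial UMIs up to 10% gave 3 for Cd8b1 against Cd4, and gates at 2 UMIs gave 13 there and 55 for Trdc against Cd8b1. The cause of these shifts was not tested.

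Among fits with both mice, directions of members turned in 3 cases, none of them called. Gzmc in Cd8b1 against Cd4 cells was at -1.92 ± 1.12 and became 3.35 ± 6.43 with gates at 2 UMIs. Gzmb in Foxp3 against Cd4 cells was at 0.11 ± 0.46 and became -0.27 ± 0.32 without barcodes of another lineage and -0.20 ± 0.30 with the block added. Leaving out mouse 2 or mouse 1 left Gzmb there at 1.32 and -0.66. Gates at 2 UMIs left 11 Foxp3-gated cells in mouse 2 and gave no test, and the contrasts of innate lymphoid cells had too few cells. The depth limits Gzmm, Gzmc and, in the Foxp3 gate, Gzmk, Prf1 and Fasl.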

Other observations

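T cells with more than 1 gate gene, which entered no comparison (95 and 159 cells), held Gzma at 4832 and 12972 CPM, Gzmb at 497 and 909, Nkg7 at 486 and 1079.8 and Prf1 at 23.4 and 54.4 in mouse 1 and mouse 2. T cells with no gate gene (722 and 333 cells) held Gzma at 443 and 1761, Gzmb at 35.6 and 112, Nkg7 at 39.9 and 191 and Gzmk at 1.60 and 8.29 CPM. Cells of no assigned lineage (704 and 295 cells) held Gzma at 364 and 839.7 and Prf1 at 15.0 and 7.94 CPM.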
